A study of Mus musculus with 9 samples.

Results

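The serpins, a family of protease inhibitors and their non-inhibitory relatives, were followed through the activation of mouse hepatic stellate cells and after knockdown of Cav1, the gene of the caveolar coat protein caveolin-1. Members were all non-control probes whose gene name on the array began with Serpin, a clade letter from a to i and a number, which gave 87 of 56605 probes and 64 of 37008 gene names. Of the 64 genes, 43 had a probe that stood above background throughout 1 group or more, that is on each of its 3 arrays, and were tested among 23965 genes. Another 21 did not, and 9 of those were above background on no array. Angiotensinogen, which is also a serpin, carries another gene name on the array and was not counted.

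Expression was measured on 9 single-colour Agilent arrays of primary hepatic stellate cells, which surround the liver sinusoids and store vitamin A, from C57BL/6 mice aged 10 weeks. Cav1-siRNA cells (si-cav, 3 arrays) and control-siRNA cells (nc, 3 arrays) had been isolated with collagenase and plated, and were transfected overnight at 5 nM once they had been 7 days in culture, so both groups are activated. Quiescent cells (qhsc, 3 arrays) carry no treatment in the labels, and no harvest time is given for them. Nothing in the labels tells whether samples within a group stem from different animals or cultures, so p-values here cover the spread between these samples alone, which may be technical.

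Serpins trap a protease by offering it a reactive loop that is cleaved, after which the serpin changes shape and holds the enzyme in a covalent complex. In the liver, hepatocytes secrete most of the plasma serpins, among them alpha-1-antitrypsin, antithrombin and the C1 inhibitor, which restrain proteases of leucocytes, clotting and complement. Stellate cells that become myofibroblasts are known for a serpin of another kind, Serpinh1, the collagen chaperone of the endoplasmic reticulum. Clade B serpins stay inside the cell and guard it against proteases of its own granules and lysosomes.

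Several serpins are copies of each other, so the sequences of their probes were compared to see which signals may be shared. Probes were compared only with other serpin probes and not with the transcripts of the copies. A probe without a match can therefore still bind more than 1 copy. Among 3712 pairs of 60-base probes for different serpin genes, 11 overlapped over at least 40 bases with no more than 25% mismatches, and in 8 of those both probes passed the filter on background. The probes of Serpina1a and Serpina1c matched over 51 bases with 1 mismatch. The probes of Serpina1b and Serpina1e matched over 44 bases with 5 mismatches, and those of Serpinb6a and Serpinb6c over 42 bases with 3. A Serpina3i probe, not the brightest of its gene, shared 57 bases with the Serpina3h probe with 6 mismatches. The windows below hold 30 bases of each, 5′ to 3′ as on the array, with bases that differ between the members of a pair in capitals. Positions refer to mm9, the build named in the headers of the files: Serpina1a at chr12:105091849-105091878 and Serpina1c at chr12:105133186-105133215 on the minus strand, Serpina1b at chr12:104966521-104966550 and Serpina1e at chr12:105185297-105185326 on the minus strand, Serpina3h at chr12:105491741-105491770 and Serpina3i at chr12:105506710-105506739 on the plus strand, and Serpinb6a at chr13:34009814-34009843 and Serpinb6c at chr13:33971703-33971732 on the minus strand.
Serpina1a: taaAatgtcatccttccttctgaattgggt
Serpina1c: taaGatgtcatccttccttctgaattgggt
Serpina1b: atcCtgcGcttcGaccAccctttccttttT
Serpina1e: atcTtgcActtcAaccGccctttccttttC
Serpina3h: cacaggGgtcaaaTtAaTtctaTgttgtgA
Serpina3i: cacaggAgtcaaaGtTaAtctaCgttgtgG
Serpinb6a: ccataagtgcaatgGcaATtatgaaataaa
Serpinb6c: ccataagtgcaatgAcaGCtatgaaataaa
The signals of each of these pairs cannot be assigned to 1 copy. The Serpina1d probe was in none of the 11 pairs, which does not show that it reads Serpina1d alone.

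All signals below are log2 values relative to the 75th percentile of their array, and the brightest probe stood for its gene. Levels are compared between groups for the same probe, never between probes. Differences were tested with limma over all 9 arrays, with Benjamini-Hochberg adjustment over all genes, and a gene was called at an adjusted p under 0.05. Between 53.6 and 70.3% of spots were above background, lowest on quiescent array 2. Markers of other liver cells were high on the quiescent arrays: the summed linear signal of 10 hepatocyte genes, relative to the 75th percentile, ran from 1.45 to 1.54 in si-cav cells and from 1.39 to 1.58 in nc cells, against 900 to 1109 in qhsc cells. In nc cells 4 of those 10 genes were above background on no array (Apoa1, Cps1, Hnf4a and Ttr), and in si-cav cells Alb and Fgb were not either. The sums for 6 macrophage genes were 5.91 to 6.44 in nc cells, against 191 to 319 in qhsc cells, and those for 6 endothelial genes 0.322 to 0.381 in nc cells, against 263 to 431 in qhsc cells. The sums for 6 lymphocyte and neutrophil genes were 1.16 to 1.32 in nc cells, against 19.9 to 50.3 in qhsc cells, and those for 3 erythroid genes 0.0588 to 0.0632 in nc cells, against 189 to 285 in qhsc cells. The 6 stellate activation genes summed to 685 to 706 in nc cells, against 6.21 to 15.2 in qhsc cells, the 4 mesothelial genes to 22.1 to 23.6 in nc cells, against 0.778 to 1.40 in qhsc cells, and the 5 tested stellate quiescence genes to 0.416 to 0.546 in nc cells, against 7.51 to 21.7 in qhsc cells. Of the quiescence genes, Lrat was above background on no nc or si-cav array and Des was not tested. Of the tested ones 4 were called lower in nc cells. Reln was not called, with -2.52, -2.81 and -2.04 in nc cells, against -3.14, -2.11 and -2.14 in qhsc cells. Such sums are weighted towards the genes with the highest signal, here Colec10 in qhsc cells (2.92, 4.11 and 2.37).

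Activated cells with the control siRNA were set against quiescent cells to see which serpins went up or down with activation. The nc cells had also been plated, cultured and transfected, and these cannot be told apart from activation. The words with activation stand for this whole difference. Of the 43 tested serpin genes, 11 were called higher in nc cells and 27 lower, and 5 were not called. Over all tested genes 42.1% were called higher and 26% lower. The median log2 difference was -3.30 over the serpins (-3.23 with genes above background in 1 group alone set at their bound) and +0.32 over all genes. Among serpins above background in both groups the lowest difference was -13.33, for Serpina1c. By role, no plasma inhibitor or carrier was called higher, while the tissue inhibitors Serpine2 and Serpini1 and the non-inhibitory Serpinf1 and Serpinh1 were called higher. The background filter kept any gene that was above background on all arrays of a single group, which favours genes that differ between groups, and 25 of the 43 genes were above background on all 9 arrays. The 3 quiescent arrays shared slide 1 with nc array 1, and nc arrays 2 and 3 were on slide 2 with the si-cav arrays. With the slide as a block 35 serpins were called, and the share of all genes called with that setting is not given here. A fit within slide 1 has only nc array 1 for its group, which is assumed to vary like the other groups. Serpina9, Serpina3b and Serpinb2 lost their call with either, and Serpinb6a, Serpinb6c and Serpinb8 within slide 1.

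**Figure D1:**
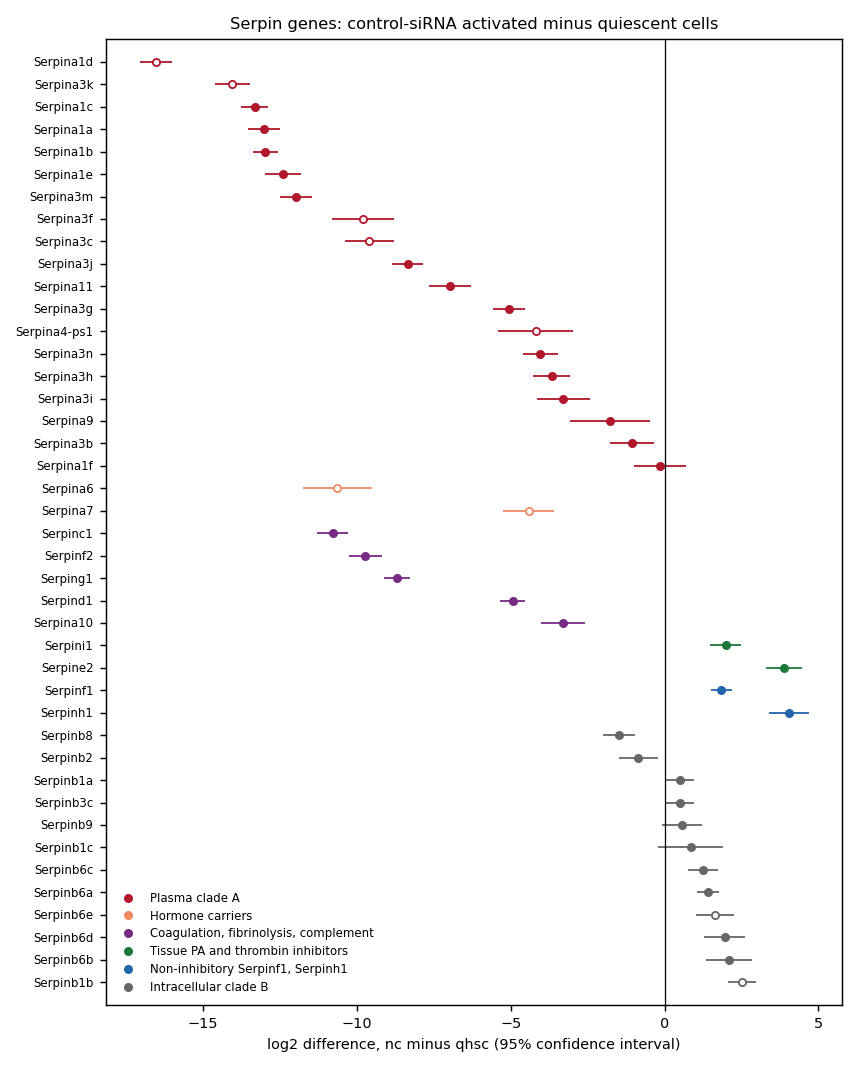
Log2 difference of 42 tested serpin genes, control-siRNA activated (nc) minus quiescent (qhsc) cells, with its 95% confidence interval, grouped by role. Open points mark genes whose probe was above background on no array of 1 of the 2 groups, for which the text gives a bound. Plasma serpins lie left of 0, the filled points down to -13.33 for Serpina1c, and Serpinh1 and Serpine2 lie farthest to the right at +4.04 and +3.87.

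The plasma inhibitors of clade A held the largest falls. Of 23 genes on the array 19 were tested, 18 were called lower in nc cells, none higher, and Serpina1f was not called; their median log2 difference was -8.35 (-7.87 with bounds). Hepatocyte markers moved with them, as given above. Their part in the result was not tested, and in whole-sample RNA fewer cells of a type and less RNA per cell cannot be told apart.

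Serpina1a to Serpina1e encode the mouse copies of alpha-1-antitrypsin, the plasma inhibitor of neutrophil elastase. Serpina1c had log2 signals of -4.90, -5.04 and -4.73 on the nc arrays, against 8.71, 8.25 and 8.35 on the qhsc arrays. Serpina1a had -4.41, -5.07 and -4.40 in nc cells, against 8.61, 8.29 and 8.30 in qhsc cells. The 2 probes share most of their bases, and both stood far above every nc array in all 3 quiescent samples. The differences were -13.33 (SE 0.19, adjusted p = 7.01e-10) for Serpina1c and -13.03 (SE 0.23, adjusted p = 9.1e-10) for Serpina1a, and a further Serpina1a probe gave -14.51.
Serpina1b read -3.68, -3.83 and -3.80 in nc cells, against 9.42, 9.03 and 9.17 in qhsc cells (difference -12.98, SE 0.17). Serpina1e read -4.02, -4.58 and -4.64 in nc cells, against 8.21, 7.93 and 7.87 in qhsc cells (difference -12.42, SE 0.26), and its other kept probe gave -13.34. All 4 of these probes were still above background on the 3 nc arrays. Serpina1d, whose probe paired with no other serpin probe, read -7.62, -8.14 and -8.43 in nc cells, against 8.64, 8.28 and 8.53 in qhsc cells. It was above background on no nc or si-cav array, so its difference is a bound, at least 25378-fold lower in nc cells (adjusted p = 7.01e-10). For such bounds the quiescent mean was set against the detection limit of every nc array (its dimmest probe that passed the background flag), or against the probe's own value if larger. Here and below, an adjusted p beside a bound belongs to the measured difference and not to the bound. In that difference the dim group is at background.

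Serpina1f, an epididymal relative, was dim throughout, with -6.49, -5.54 and -5.32 in nc cells, against -5.21, -6.31 and -5.38 in qhsc cells, and the groups overlapped. Its difference of -0.15 (SE 0.37, adjusted p = 0.735) turned positive without nc array 1 (+0.20) or without qhsc array 1 (+0.06).

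The Serpina3 cluster is a mouse expansion of the gene for alpha-1-antichymotrypsin. Serpina3k, known as contrapsin, an inhibitor of trypsin-like proteases in mouse plasma, had -7.67, -8.49 and -7.66 in nc cells, against 6.00, 6.07 and 6.30 in qhsc cells. It was above background on no nc array and was at least 4934-fold lower there (adjusted p = 9.1e-10). Serpina3n, which in mice inhibits granzyme B and is induced in the acute phase, had -4.04, -4.27 and -4.05 in nc cells, against -0.46, 0.44 and -0.20 in qhsc cells. Its difference was -4.05 (SE 0.25, adjusted p = 7.88e-07), a smaller distance than for Serpina3k, and the nc arrays stayed above background.
Among the others of the cluster, Serpina3m was at -11.97, Serpina3j at -8.35, Serpina3g, which guards lymphoid cells against lysosomal cathepsins, at -5.05, Serpina3h at -3.68, Serpina3i at -3.30 and Serpina3b at -1.07. Serpina3f was at least 387-fold lower and Serpina3c at least 233-fold lower in nc cells. A further probe named Serpina3f gave -4.55. It lies at chr12:105492556-105492615, beside the Serpina3h probe at chr12:105491733-105491792, while the brighter Serpina3f probe lies at chr12:105458989-105459048 (mm9). Outside the cluster, Serpina11 was at -6.97, the pseudogene Serpina4-ps1 was at least 9.37-fold lower in nc cells, and Serpina9 was at -1.77 (adjusted p = 0.0215), with -1.38, -3.50 and -0.77 in qhsc cells. Quiescent array 2 lay close to the nc arrays for Serpina9, which read -3.61 to -3.70. Without that array the Serpina9 difference was -2.58, and the call was lost without any 1 of the 5 other nc and qhsc arrays (adjusted p from 0.0501 to 0.0744).

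The genes of both hormone carriers fell. Serpina6, the corticosteroid-binding globulin of plasma, had -8.12, -8.50 and -7.53 in nc cells, against 2.75, 1.42 and 3.59 in qhsc cells. Serpina7, the thyroxine-binding globulin, read -7.46, -8.27 and -6.57 in nc cells, against -3.17, -3.09 and -2.79 in qhsc cells. Neither was above background on any nc array. Serpina6 was at least 426-fold lower in nc cells (adjusted p = 1.22e-07) and Serpina7 at least 8.74-fold lower (adjusted p = 5.74e-06).

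All 5 plasma inhibitors of clotting, fibrinolysis and complement were called lower in nc cells, with a median log2 difference of -8.70. Serpinc1 encodes antithrombin, the heparin-activated inhibitor of thrombin and factor Xa. It read -5.08, -5.13 and -4.89 in nc cells, against 5.42, 5.84 and 6.04 in qhsc cells (difference -10.80, SE 0.22, adjusted p = 1.7e-09). Its other kept probe, downstream at chr1:162934272-162934331 (mm9), was dim in every group and gave -0.86 (adjusted p = 0.013 in the fit over all kept probes).
Serpinf2, alpha-2-antiplasmin, the fast inhibitor of plasmin, read -5.54, -5.63 and -5.47 in nc cells, against 3.88, 4.15 and 4.52 in qhsc cells. Serping1, the inhibitor of C1 and of plasma kallikrein, read -3.87, -4.09 and -3.92 in nc cells, against 4.34, 5.01 and 4.87 in qhsc cells. The differences were -9.73 (SE 0.24) and -8.70 (SE 0.18). Serpind1, heparin cofactor II, an inhibitor of thrombin, read -1.75, -1.74 and -2.01 in nc cells, against 2.95, 2.94 and 3.44 in qhsc cells (difference -4.95, SE 0.17).
Serpina10, the protein Z-dependent inhibitor of factor Xa, read -5.06, -5.85 and -5.41 in nc cells, against -2.69, -1.95 and -1.78 in qhsc cells. Its difference was -3.30 (SE 0.32, adjusted p = 1.62e-05). Its other probe was above background on no nc array and was at least 44.2-fold lower in nc cells. For each of the 5 genes every nc array lay below every qhsc array. The share of all genes that separate in this way is not given here.

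**Figure D2:**
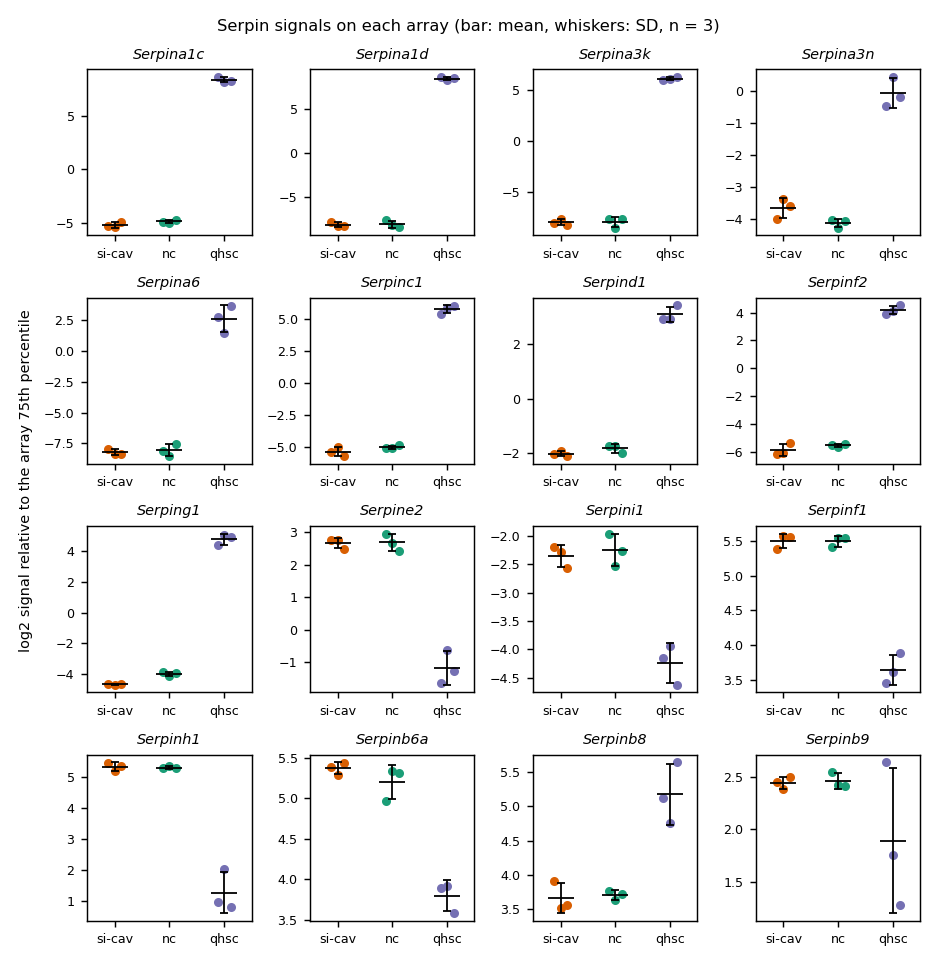
Log2 signals of 16 serpin genes on each array, relative to the array's 75th percentile, for Cav1-siRNA (si-cav), control-siRNA (nc) and quiescent (qhsc) cells. Points are arrays, horizontal bars are means and whiskers are SD (n = 3), and each panel has its own scale. The si-cav and nc points lie close together in each panel, while the qhsc points lie far above them for plasma serpins such as Serpina1c and below them for Serpine2, Serpini1, Serpinf1, Serpinh1 and Serpinb6a.

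Serpine2 and Serpini1, inhibitors of plasminogen activators and thrombin in tissue, were called higher in nc cells. The summed signals of the stellate activation and mesothelial markers were higher too, as given above, although of the 4 mesothelial genes Krt19 was called lower (-3.15). Their part in this and the next 2 groups was not tested. Serpine2, protease nexin 1, a cell-surface inhibitor of thrombin and plasminogen activators, had 2.95, 2.68 and 2.43 in nc cells, against -1.63, -0.62 and -1.28 in qhsc cells, and rose 14.6-fold (log2 +3.87, SE 0.26, adjusted p = 1.3e-06). Its other probe gave +2.69. Serpini1 encodes neuroserpin, an inhibitor of tissue plasminogen activator known from neurons. It had -1.96, -2.52 and -2.27 in nc cells, against -4.15, -3.95 and -4.62 in qhsc cells, and rose 3.97-fold (log2 +1.99, SE 0.22, adjusted p = 4.17e-05). The probe was above background on 2 of 3 qhsc arrays, and over the alternative settings its difference ran from +0.62 to +2.28. The other kept Serpini1 probe was above background on no qhsc array and was at least 1.05-fold higher in nc cells. Serpine3 and Serpini2, of the same clades, were not tested, and were above background on 4 arrays and 1 array of the 9.

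Among serpins that do not inhibit proteases, Serpinh1 and Serpinf1 rose, unlike the carriers Serpina6 and Serpina7. Serpinh1 encodes HSP47, which binds procollagen triple helices in the endoplasmic reticulum and escorts them to the Golgi. It had 5.28, 5.35 and 5.29 in nc cells, against 0.95, 2.02 and 0.82 in qhsc cells, and rose 16.5-fold (log2 +4.04, SE 0.29, adjusted p = 1.98e-06). The nc arrays agreed to within 0.04 (SD), and quiescent array 2 was the highest of its group. A further probe under the name Serpinh1 has the opposite strand to the RefSeq gene. It was above background on no quiescent array and was at least 1.32-fold higher in nc cells (adjusted p = 2.7e-04 in the fit over all kept probes).
Serpinf1, pigment epithelium-derived factor, a secreted anti-angiogenic protein that binds collagen, had 5.41, 5.54 and 5.53 in nc cells, against 3.45, 3.61 and 3.88 in qhsc cells, and rose 3.60-fold (log2 +1.85, SE 0.15, adjusted p = 4.95e-06). Its 2 other probes gave +2.12 and +2.24.

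Clade B showed a mixed picture and smaller differences. Of 27 genes 12 were tested, with 6 called higher, 2 lower and 4 not called, counts near the shares over all tested genes (42.1% higher and 26% lower). The median log2 difference was +1.05 (+0.65 with bounds). The Serpinb6 genes, whose human counterpart inhibits cathepsin G, made up 5 of the 6 higher calls. Serpinb6a had 4.96, 5.33 and 5.32 in nc cells, against 3.90, 3.92 and 3.58 in qhsc cells (difference +1.40, SE 0.16, adjusted p = 5.08e-05). Of its other kept probes, 1 gave +1.51 and a dim one at chr13:34078371-34078430 (mm9) gave +0.19 (adjusted p = 0.68 in the fit over all kept probes). Serpinb6b had 3.48, 3.49 and 3.39 in nc cells, against 2.20, 1.24 and 0.64 in qhsc cells (difference +2.09, SE 0.33, adjusted p = 4.16e-04). Serpinb6c, which shares probe bases with Serpinb6a and Serpinb6e, was at +1.25, Serpinb6d at +1.95, and Serpinb6e at least 1.19-fold higher in nc cells.
Serpinb1b, a copy of the gene for the neutrophil elastase inhibitor, had -4.28, -4.24 and -4.18 in nc cells, against -7.18, -6.37 and -6.72 in qhsc cells, where it was above background on no array. It was at least 1.66-fold higher in nc cells (adjusted p = 4.66e-06 for the measured difference of +2.52). For the dim Serpinb1b, Serpinb6d and Serpinb6e the direction turned with normexp background correction and 75th percentile scaling, to -0.11, -0.0195 and -0.33, a setting that lowered the median of all genes by 0.45, and no other setting turned it.
Serpinb1a, the closest mouse copy of that elastase inhibitor, was not called, with 0.35, 0.26 and 0.24 in nc cells, against 0.12, -0.68 and -0.06 in qhsc cells (difference +0.49, SE 0.20, adjusted p = 0.0583). Serpinb9, which protects lymphocytes from their own granzyme B, had 2.55, 2.42 and 2.41 in nc cells, against 2.63, 1.76 and 1.29 in qhsc cells. These groups overlapped (difference +0.57, SE 0.29, adjusted p = 0.114), and without qhsc array 1, the highest, the difference was +0.94 and called (adjusted p = 0.00159). Serpinb1c at +0.84 and Serpinb3c at +0.49 were not called either. Without qhsc array 1, Serpinb1a (+0.65) and Serpinb1c (+1.41) were called too.
The sums of the macrophage genes and of the lymphocyte and neutrophil genes were lower in nc cells, as given above. Their part in clade B was not tested. Serpinb2, an inhibitor of urokinase made by macrophages, had -5.36, -5.27 and -4.83 in nc cells, against -4.13, -4.10 and -4.65 in qhsc cells. It was called lower (difference -0.86, SE 0.28, adjusted p = 0.0214), and the call was lost without nc array 1 or 2 or without qhsc array 1 or 2 (adjusted p from 0.0601 to 0.07). Serpinb8, whose human counterpart inhibits furin, had 3.77, 3.63 and 3.71 in nc cells, against 5.13, 4.76 and 5.65 in qhsc cells (difference -1.48, SE 0.23, adjusted p = 3.5e-04). Its dimmer kept probe ran the other way, with -2.58, -2.15 and -2.11 in nc cells, against -5.06, -5.69 and -5.02 in qhsc cells (difference +2.98, adjusted p = 2.2e-06 in the fit over all kept probes). The brighter probe lies at chr1:109504865-109504924 and the dimmer one in the interval chr1:109499452-109501197 (mm9), and the mean of both was +0.75, so the direction of Serpinb8 rests on the probe.

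**Figure D3:**
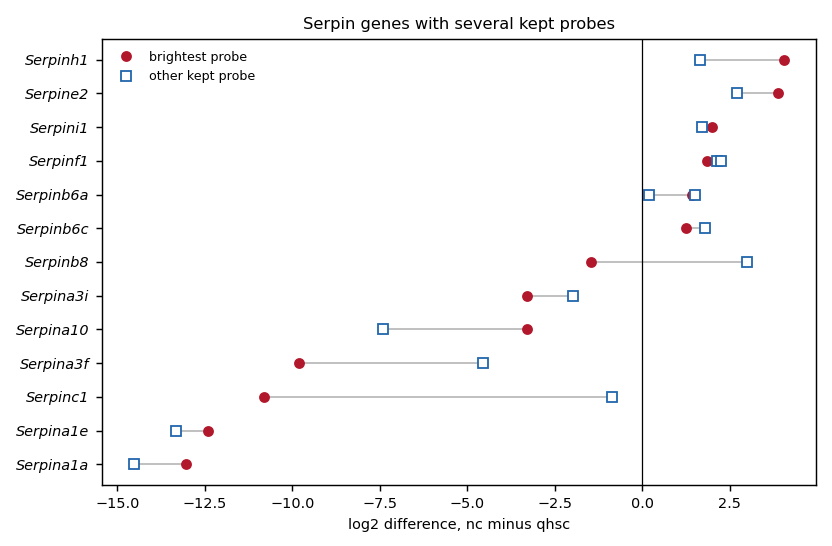
Log2 difference, nc minus qhsc, of the brightest probe (filled) and of each other kept probe (open) for 13 serpin genes with several kept probes. Points of probes above background in 1 group alone are measured differences, for which the signal of the dim group is at background. Serpinb8 has 1 probe on each side of 0, at -1.48 and +2.98, and Serpinc1 has the widest distance between probes on the same side, at -10.80 and -0.86.

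The calls already given by role were also counted by chromosome. Over all tested genes 42.1% were called higher in nc cells and 26% lower. On chromosome 12, which holds the clade A cluster, 20 of 21 tested genes were called lower in nc cells and none higher. On chromosome 13, which holds the Serpinb1, Serpinb6 and Serpinb9 copies, 6 of 9 were called higher and none lower. These 6 are the higher calls of clade B given above. On chromosome 1 the tested genes were Serpinc1, Serpine2, Serpinb2, Serpinb3c and Serpinb8, with 1 higher and 3 lower. Genes of a cluster share ancestry and in part probe sequence, so they are not independent of each other.

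Promoters are shown for 3 genes that lie towards the ends of this range. RefSeq sequences of the 250 bases before the start (GRCm38.p6) were found for 53 of the 64 genes and searched on both strands for GTTAAT, part of the site of the hepatocyte factor HNF1, for the GC box GGGCGG and for TATAAA. Capitals mark GTTAAT in Serpina1a and GGGCGG in Serpine2 and Serpinh1, and neighbouring GGGCGG matches run into each other. All 3 genes lie on the minus strand, with the windows at chr12:103863620-103863869, chr1:79858666-79858915 and chr7:99353240-99353489 (GRCm38.p6).
Serpina1a: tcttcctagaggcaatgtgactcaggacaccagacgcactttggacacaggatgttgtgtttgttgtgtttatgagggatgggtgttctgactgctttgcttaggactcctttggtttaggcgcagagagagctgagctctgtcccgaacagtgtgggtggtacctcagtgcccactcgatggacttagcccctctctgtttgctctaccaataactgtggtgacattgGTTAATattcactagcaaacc
Serpine2: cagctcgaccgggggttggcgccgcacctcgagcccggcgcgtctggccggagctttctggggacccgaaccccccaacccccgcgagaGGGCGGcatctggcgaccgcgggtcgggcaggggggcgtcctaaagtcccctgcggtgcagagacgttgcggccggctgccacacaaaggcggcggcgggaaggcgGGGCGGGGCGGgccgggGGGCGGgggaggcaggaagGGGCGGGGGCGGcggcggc
Serpinh1: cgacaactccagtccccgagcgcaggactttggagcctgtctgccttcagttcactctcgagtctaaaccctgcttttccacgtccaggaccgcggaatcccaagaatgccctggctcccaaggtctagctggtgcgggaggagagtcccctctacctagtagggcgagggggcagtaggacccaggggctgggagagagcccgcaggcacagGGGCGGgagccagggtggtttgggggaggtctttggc
GTTAAT was found in all of Serpina1a to Serpina1e, with its first letter 21, 26, 27, 16 and 78 bases before the start. It was found for 11 of the 53 serpin genes, against 6.43% of all 32851 promoters of that length. The others were Serpina3c, Serpina7, Serpinb8 and the untested Serpinb3b, Serpinb3d and Serpini2. In these counts a serpin gene has a match if any of its promoters does, while the shares over all promoters count each promoter. The units therefore differ. The longest run of bases shared by the promoters of any pair of Serpina1a to Serpina1e was between 55 and 115 bases, so those matches are not independent. GGGCGG was found in 7 of the 53, against 32.7% of all promoters, with 6 matches in Serpine2 and 1 in Serpinh1, and further matches in Serpinb6a, Serpinb6b, Serpinb6c and the untested Serpina12 and Serpinb5. TATAAA was found in 14 of the 53, against 12.4% of all promoters. A match says only that the letters are in the window.

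The proteases that serpins inhibit, with their receptors and cofactors, moved in both directions. Of 44 listed genes 42 were tested, with 11 called higher in nc cells, 25 lower and 6 not called, where 42.1% of all tested genes were called higher and 26% lower. The median log2 difference was -2.29. Among the lowest were plasma and lymphocyte genes that were above background on no nc array and so have only a bound. Vtn, vitronectin, an adhesive protein of plasma, was at least 2135-fold lower in nc cells. F10, clotting factor X, was at least 811-fold lower, Proc, the precursor of activated protein C, at least 882-fold lower, and Gzmb, the granzyme of cytotoxic lymphocytes, at least 662-fold lower. Other targets of the plasma inhibitors were lower too, such as thrombin's precursor F2 at -10.57 (above background on 2 of 3 nc arrays), a difference beyond the bounds of F10, Proc and Gzmb, and plasminogen's precursor Plg, at least 40.1-fold lower.
The plasminogen activator Plat was higher, as were Serpine2 and Serpini1. It had 1.33, 1.62 and 1.60 in nc cells, against -5.76, -4.72 and -7.44 in qhsc cells, and was at least 89.4-fold higher (adjusted p = 2.62e-06). Plau, the urokinase gene, had -0.19, -0.16 and -0.07 in nc cells, against values from -1.34 to 0.06 in qhsc cells, and those groups overlapped. It was not called (+0.62, adjusted p = 0.1), nor was the gene of its receptor, Plaur (-0.45). Tissue factor, F3, which starts clotting, was at +5.70, and Lrp1, the receptor that clears serpin and protease complexes, at +2.37. The complement proteases that Serping1 inhibits, C1ra and C1s1, were higher at +1.72 and +2.89, opposite to Serping1 itself at -8.70.

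The collagen chains and the enzymes and carriers that act beside Serpinh1 rose for the most part. Of 30 genes, all tested, 26 were called higher in nc cells, 2 lower and 2 not called, where 42.1% of all tested genes were called higher and 26% lower. The median log2 difference was +2.64. Among the largest were Plod2, a lysyl hydroxylase of collagen, at +7.42 (above background on 1 of 3 qhsc arrays), the collagen chain Col5a2 at +6.88 (2 of 3 qhsc arrays), the collagen chaperone Fkbp10 at +6.81, and Kdelr3, a receptor that returns chaperones such as HSP47 to the endoplasmic reticulum, at least 80.0-fold higher. Fkbp10 had 5.17, 5.31 and 5.22 in nc cells, against -1.81, -0.87 and -2.03 in qhsc cells. Col1a1 was at +5.89. The 2 lower genes were Tmem38b, an ion channel of the endoplasmic reticulum, at -2.27, and Plod1, another lysyl hydroxylase, at -2.21.

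Cav1-siRNA cells were set against control-siRNA cells to see whether serpins responded to the loss of caveolin-1. Cav1 itself had log2 signals of -2.87, -2.89 and -3.07 in si-cav cells, against -1.34, -1.12 and -1.09 in nc cells, so every si-cav array was below every nc array. The difference was -1.76 (SE 0.24), with an adjusted p of 0.145, so it missed the threshold over all genes, and it was called without qhsc array 1 (adjusted p = 0.0213).
No serpin gene was called among the 43 tested, and 0% of all genes were. With an unadjusted p under 0.05 there were 4 serpins, and with array weights in limma 1 serpin was called. For neither count is the share over all genes given here, so no conclusion is drawn from them. The median log2 difference was -0.02 over the serpins and -0.04 over all genes, and the range over the serpins was -0.98 to +0.56. The 4 with the smallest p all had lower means in si-cav cells.
Serpina1a had -5.93, -5.33 and -5.56 in si-cav cells, against -4.41, -5.07 and -4.40 in nc cells. Each si-cav array was below each nc array, and the difference was -0.98 (95% confidence interval -1.51 to -0.45, adjusted p = 0.556). The probe was above background on 2 of 3 si-cav arrays, and the Serpina1c probe with most of the same bases differed by -0.33. Serping1 had -4.62, -4.67 and -4.63 in si-cav cells, against -3.87, -4.09 and -3.92 in nc cells (difference -0.68, 95% confidence interval -1.10 to -0.26, adjusted p = 0.682). The arrays of each group lay within a narrow range and did not overlap. With array weights Serping1 was called (-0.65, adjusted p = 0.0115), and within slide 2 it was not (-0.64, adjusted p = 0.178).
Serpinb1b had -4.85, -4.89 and -4.61 in si-cav cells, against -4.28, -4.24 and -4.18 in nc cells (difference -0.55, adjusted p = 0.88). Serpinb3c, a mouse relative of the squamous cell carcinoma antigens, had -3.80, -3.87 and -4.09 in si-cav cells, against -3.54, -3.64 and -2.92 in nc cells (difference -0.55, adjusted p = 0.892). Neither pair of groups overlapped, but these genes were picked by their small p. Other serpins did not overlap either, such as Serpina3n (+0.47) and Serpina3g (+0.35), higher in si-cav cells, and Serpinb1a (-0.34), lower. The share of all genes whose groups did not overlap is not given here. With normexp background correction the 4 differences were closer to 0, from -0.26 to -0.12 over the 2 normexp settings.

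Of the serpins called higher with activation, Serpinh1, Serpine2, Serpini1, Serpinf1 and Serpinb6a had differences between -0.10 and +0.17 in this comparison. Serpinb6b (+0.15) and Serpinb6d (+0.16) were also within that range. Serpinb1b (-0.55), Serpinb6c (+0.29) and Serpinb6e (-0.23) were outside it. Serpinh1 had 5.45, 5.19 and 5.37 in si-cav cells, against 5.28, 5.35 and 5.29 in nc cells, a difference of +0.03 with a 95% confidence interval of -0.62 to +0.68. The groups overlapped, and the interval leaves room for changes in either direction.
Serpine2 had 2.76, 2.76 and 2.49 in si-cav cells, a difference of -0.02 from nc cells (-0.60 to +0.56). Serpini1 had -2.20, -2.28 and -2.56, a difference of -0.10 (-0.60 to +0.40). Serpinf1 had 5.38, 5.56 and 5.55, a difference of 0.00 with the narrowest interval of the 43 genes (-0.34 to +0.34).
Serpinb6a had 5.39, 5.29 and 5.44 in si-cav cells, a difference of +0.17 (-0.20 to +0.53), and Serpinb9, which was not called with activation, had 2.45, 2.38 and 2.49, a difference of -0.02 (-0.68 to +0.65). Of the 42 proteases and cofactors and the 30 collagen partners of Serpinh1, none was called with the main settings. In the same order 4 and 0 had an unadjusted p under 0.05, and 2 proteases or cofactors were called with array weights. The shares over all genes are not given for those counts either.

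**Figure D4:**
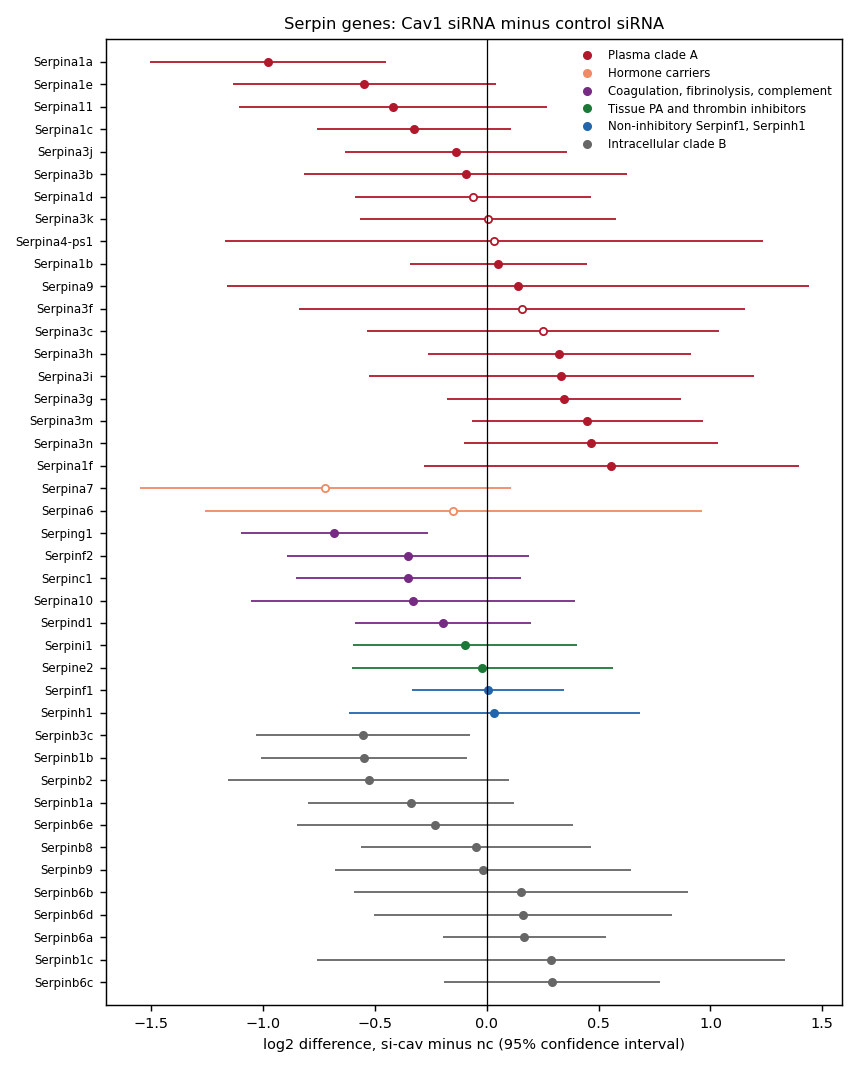
Log2 difference of 42 tested serpin genes, Cav1-siRNA (si-cav) minus control-siRNA (nc) cells, with its 95% confidence interval, grouped by role. Open points mark genes whose probe was above background on no array of 1 of the 2 groups or of both. Serpina1a is lowest at -0.98, Serpina1f is highest at +0.56, and Serpine2, Serpinf1 and Serpinh1 have differences of -0.02, 0.00 and +0.03.

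Cav1-siRNA cells against quiescent cells gave 11 serpins called higher, 27 lower and 5 not called, where 40.4% of all genes were called higher and 27.2% lower. This comparison shares its quiescent arrays with the nc comparison, so the values are set side by side without a test of their likeness. Serpinh1 was at +4.07 in si-cav and +4.04 in nc cells, each relative to the same quiescent arrays, and Serpina1c at -13.66 in si-cav and -13.33 in nc cells. Serpinb2, whose probe was above background on 2 of 3 si-cav arrays, was at -1.38 in si-cav and -0.86 in nc cells. All si-cav arrays were on slide 2 and all qhsc arrays on slide 1, so only the nc arrays, which lie on both slides, allow the slide to be set apart. With the slide as a block 36 serpins were called in this comparison, and the share of all genes called with that setting is not given here.

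The 21 genes that were not tested include most of clade B. They are Serpinb3a, Serpinb3b, Serpinb3d, Serpinb5, the tumour suppressor maspin, Serpinb7, Serpinb10, Serpinb11, Serpinb12, Serpinb13 and the Serpinb9 copies Serpinb9b to Serpinb9g. In clade A they are Serpina3a, Serpina5, the protein C inhibitor, Serpina12, the adipokine vaspin, and Serpina16. Serpine3 and Serpini2 complete them. Each was above background on 0 to 4 of the 9 arrays.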

How the data were processed

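Total RNA of mouse stellate cells was labelled with Cy3 and hybridised to 9 single-colour Agilent arrays, per the labels' protocols, and the authors extracted the scans with Feature Extraction 10.7.1.1 (Agilent), per the file headers. The deposited files give a background-subtracted linear intensity per spot, the processed signal, and probe coordinates on mm9. A whole-series value file gave that intensity as a mean per probe (within 0.1% for 99.9% of values) and was an alternative. The deposited mean and local background intensities and the quality flags were used too.

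After log2 transformation each array was shifted so that its non-control spots had their 75th percentile at 0. Outlier spots were dropped and the remaining spots of a probe averaged. A probe was kept with at least 0.5 of its spots well above background on all 3 arrays of a group: 36885 probes, 60 of them serpins. Of the 36885 kept probes, 68 lacked a value on an array and were left out of the fits. The last include the brighter Serpina9 probe (quiescent array 2), so the dimmer one stands for Serpina9. The brightest kept probe stood for its gene. Serpins kept the name on the array, and other probes were named by RefSeq accession (32994) or synonym (520) through GRCm38.p6. No spot was saturated.

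Groups were fitted with limma 3.58.1 in R 4.3.3 (lmFit, eBayes, two-sided, all 9 arrays). The script was tested on simulated data. Alternatives changed background correction (normexp, offset 50), scaling, value source, filter, probe choice, weights, slide, replicate block and arrays. The precision is limited by the 3 arrays per group. Per-array values are given for a panel of serpins, for the 6 largest rises and 6 largest falls with activation, except 1 gene that is not reported here, for the 4 smallest p after the Cav1 siRNA, and for other kept probes that differ in direction or call. The members, the lists of proteases, collagen partners and markers, and the panel were chosen with earlier results of these data known. Tables and figures were made with data.table (version 1.17.8), pandas 2.3.3 and matplotlib 3.10.9 in Python 3.11.15.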

Additional observations from a re-analysis of the deposited data

How the results depend on the processing

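Of 928 pairs of a serpin gene and an alternative setting in nc minus qhsc, 888 kept direction and side of the threshold, 22 lost their call, 10 gained one and 8 turned direction, and 29 of 43 genes kept both in all their settings. Direction turned with normexp background correction and 75th percentile scaling for Serpinb1b (-0.11), Serpinb1c (-0.37), Serpinb3c (-0.14), Serpinb6d (-0.0195) and Serpinb6e (-0.33), without qhsc array 1 (+0.06) and without nc array 1 (+0.20) for Serpina1f (range -0.49 to +0.20 with 1 array left out), and with the mean of the kept probes for Serpinb8 (+0.75). That normexp setting moved the median of all genes by -0.45 and the share of calls that were higher to 46.2%, from 61.8% (median scaling 66.9%, normexp with quantile normalization 60.3%). In si-cav minus qhsc that share was 45.1% with normexp and 75th percentile scaling, 59.1% with quantile normalization and 68.4% with median scaling, against 59.8%. The causes were not tested. With a filter on all 9 arrays fewer genes were tested, and 24 serpins (15 lower) were called in nc minus qhsc, 22 (7 higher, 15 lower) in si-cav minus qhsc and 19 proteases and cofactors in nc minus qhsc. Of the 43 serpins tested with the main filter, 25 were above background on all 9 arrays. The shares of all genes called with the filter on all 9 arrays are not given here. Array weights gave 1 serpin (lower) and 2 proteases or cofactors in si-cav minus nc, and the share of all genes called with them is not given here. Cav1 was called with normexp and 75th percentile (-1.25, adjusted p = 0.0102), normexp and quantile (-1.15, adjusted p = 0.00882), array weights (-1.88, adjusted p = 8.81e-04) and only the 2 groups compared (-1.76, adjusted p = 0.0407).

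With 1 array left out, serpin calls were 36 to 39 in nc minus qhsc (11 to 14 higher, 25 to 27 lower), 37 to 39 in si-cav minus qhsc (11 to 13 higher, 26 to 27 lower) and 0 to 0 in si-cav minus nc, protease and cofactor calls 36 to 39 and 0 to 0, collagen partner calls 27 to 28 and 0 to 0, and Cav1 ran from -1.84 to -1.70 (adjusted p from 0.0213 to 0.695). Leaving quiescent array 2 out of the filter as well, an alternative chosen after seeing the data because its detection limit was the highest, gave 11 higher and 27 lower. The replicate numbers did not pair the samples (correlations of deviations from -0.114 to 0.173), and the fit with the replicate block gave 38 serpin calls in nc minus qhsc, 0 in si-cav minus nc and 38 in si-cav minus qhsc, with Cav1 at an adjusted p of 0.413. For the counts with arrays left out or with the replicate block, the shares over all genes are not given here. A comparison within 1 slide could not be made for si-cav minus qhsc. Dim probes limit what can be shown for genes near background, such as Serpina1a in activated cells.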
